A study of Mus musculus with 12 samples.

Results

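In all, 10 genes of the endoplasmic reticulum (ER) are described here, chosen by their mouse symbols among the 2398 genes of the count table analysed: Hsp90b1, Atf6, Edem3, Derl3, Uggt1, Sec63, Tram1, Mia3, Sar1a and Copa. All 10 were found and all 10 passed the filter on low counts. They lie on chromosome 1 (6 genes) and chromosome 10 (4 genes), the chromosomes covered by the table, and together held 1.60% of its counts. The table stops part of the way along chromosome 10, where its last gene ends at base 111301736.

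The cells were oligodendrocytes of the mouse brain, sorted by flow cytometry for GFP and against propidium iodide, a stain of dead cells, from C57BL/6 animals carrying the Ndrg1-EGFP reporter. Both groups had floxed Lmna, which encodes the A-type lamins of the nuclear envelope. The control animals had the genotype Cnp+/+;Lmnafl/fl and are called WT, and the animals called KO had the genotype CnpCre/+;Lmnafl/fl, in which Cre is driven from 1 allele of the oligodendrocyte gene Cnp, so that the groups differ in Cre and in Cnp dose as well as in Lmna. The labels give an age of postnatal day 60 in one field and 8 weeks in another. RNA was sequenced from 3 biological replicates of each genotype, and the 2 libraries of each replicate were summed, so n = 3 for each genotype. Neither Lmna nor Cnp was analysed here, and recombination was not checked. The labels do not say whether a replicate was 1 animal or several.

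Proteins that enter the secretory pathway are threaded into the ER, folded by chaperones, checked by enzymes that read their sugar chains, and then either packed into COPII vesicles for the Golgi or sent back to the cytosol for degradation. COPI vesicles carry escaped ER residents back. When unfolded protein builds up, the membrane-bound factor ATF6 is cut and its released part enters the nucleus and, with NF-Y, binds the ER stress response element (ERSE) of chaperone genes. Oligodendrocytes route large amounts of myelin protein and lipid through this system, and mutations of the myelin protein PLP that trap it in the ER are a known cause of myelin disease.

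The promoters of Hsp90b1 and Derl3 are shown because they hold the element that ATF6 binds. In the RefSeq promoter sequences (GRCm38.p6), 8 of the 10 genes matched an entry, and Atf6 and Tram1 did not. The 250 bases before each start were searched on both strands for the ERSE, written as CCAAT, then 9 bases of any kind (N), then CCACG. It was found in 2 of these 8 genes, Hsp90b1 with 2 copies and Derl3 with 1. Among all 27025 genes with an entry, 35 held it (0.130%), and among the 1162 tested genes of the table with an entry the 2 that held it were Hsp90b1 and Derl3. The windows of these 2 genes are printed 5′ to 3′ on the gene's strand, with the ERSE in capitals, chr10:86705445-86705694 (minus strand) for Hsp90b1 and chr10:75893148-75893397 (plus strand) for Derl3.
Hsp90b1: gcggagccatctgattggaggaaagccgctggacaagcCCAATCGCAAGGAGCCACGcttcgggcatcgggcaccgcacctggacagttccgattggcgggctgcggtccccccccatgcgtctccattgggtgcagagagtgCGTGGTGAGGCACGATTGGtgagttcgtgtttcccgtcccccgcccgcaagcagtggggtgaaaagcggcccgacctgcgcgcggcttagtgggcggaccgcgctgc
Derl3: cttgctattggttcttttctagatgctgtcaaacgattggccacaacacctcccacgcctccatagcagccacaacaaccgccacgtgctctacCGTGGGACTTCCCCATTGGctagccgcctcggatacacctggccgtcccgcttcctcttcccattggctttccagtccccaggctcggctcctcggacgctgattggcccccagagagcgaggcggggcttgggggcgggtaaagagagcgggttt
The 3 elements are set out in the direction of the motif, with the fixed letters in capitals. The first lies 212 to 194 bases before the start, and the second 107 to 89 bases before it on the opposite strand. The element of Derl3 lies 156 to 138 bases before its start, also on the opposite strand.
Hsp90b1 first: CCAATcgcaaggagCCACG
Hsp90b1 second: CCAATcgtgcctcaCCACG
Derl3: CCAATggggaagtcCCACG
The related motif ERSE-II, written as ATTGG, 1 base of any kind and CCACG, was in 0 of the 8 windows and in 0.0304% of the 32851 starts. The motif TGACGTGG, a core of the unfolded protein response element, was likewise in 0 of 8, against 0.563% of all starts. The pentamer CCACG, which is part of the ERSE and ERSE-II, was in 5 of 8 windows and in 28.3% of all starts. A match of letters does not show that a factor bound there.

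The table held between 3694551 and 6093336 counts per replicate, which is part of each library and not its depth. Levels are in CPM, with the counts of each replicate brought to the same total by its library size and TMM factor. The library size used is the total of the replicate's counts over the analysed genes of the table, not over the whole library. The CPM values are therefore higher than values scaled to whole libraries would be, and are not to be compared with such values. Of the fixed markers of mature oligodendrocytes, Adamts4 and Nfasc were in the table and summed to between 10321 and 11902 CPM in WT and between 14783 and 17097 CPM in KO. Their part in the results below was not tested. The 4 microglia and macrophage markers summed to between 91.7 and 165 CPM in WT and between 88.4 and 372 CPM in KO, the 5 astrocyte markers to between 2334 and 3663 in WT and between 3108 and 3622 in KO, and the 4 plasma and B cell markers to between 5.76 and 11.2 in WT and between 1.71 and 16.1 in KO. The 4 neuronal markers summed to between 227 and 516 CPM in WT and between 222 and 303 in KO, the 7 vascular, mural and fibroblast markers to between 112 and 509.8 in WT and between 282 and 687 in KO, the 3 choroid plexus and ependyma markers to between 13.3 and 168 in WT and between 27.9 and 34.7 in KO, and the 2 progenitor markers to between 0.497 and 36.6 in WT and between 12.2 and 95.6 in KO. Fcrla, a B cell gene, was at 0 in 5 of 6 replicates, and no marker in the table was at 0 in all 6. In sorted bulk RNA, fewer cells of a type and less RNA per cell cannot be told apart. WT replicate 2 and KO replicate 1 stood apart from the others. They had the highest Sgk1, a kinase gene induced by glucocorticoids (46222 and 45902 CPM, against 10432.5 to 30363.5 in the other 4), the lowest Egr2, an immediate early gene (78.5 and 49.8 CPM, against 485 to 1315), and the fewest counts (4155727 and 3694551).

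The comparison of KO with WT asked whether transcripts of the ER folding and export system differ between oligodendrocytes of the KO and WT genotypes. None of the 10 genes passed the test, and the estimates lay close to 0. By the quasi-likelihood test of edgeR, adjusted after Benjamini and Hochberg over the 1484 genes tested, 0 of the 10 genes were called at an adjusted p under 0.05, with adjusted p between 0.994 and 1.000 (percent of all tested genes called, 0%). At an unadjusted p under 0.05 there were 0 of 10, against 59 of all tested genes (3.98%), and DESeq2 and limma-voom also called 0 of 10. The replicates of the genotypes overlapped in all 10 genes, where 8.49% of tested genes did not overlap, 4.45% with KO above WT and 4.04% with KO below WT. Log2 fold changes, KO over WT, ran from -0.097 for Tram1 to 0.10 for Uggt1 with a median of 0.0089, 6 above 0 and 4 below, and the median over all tested genes was -0.0064.

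The width of the intervals says how large a difference these data allow. The 95% interval lay within 0.5 log2 units of no change for 9 of the 10 genes, Derl3 being the exception, and for 37.7% of all tested genes. The distance from the estimate to the end of its interval had a median of 0.27 log2 units for the 10 genes and 0.48 for all tested genes. The 10 genes were deeply counted, with a median over genes of 4143 counts per replicate, where the median over all tested genes was 746. These p-values and intervals rest on the spread among 3 replicates of each genotype, which the fit moderates for each gene by the spread of the other tested genes.

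**Figure D1:**
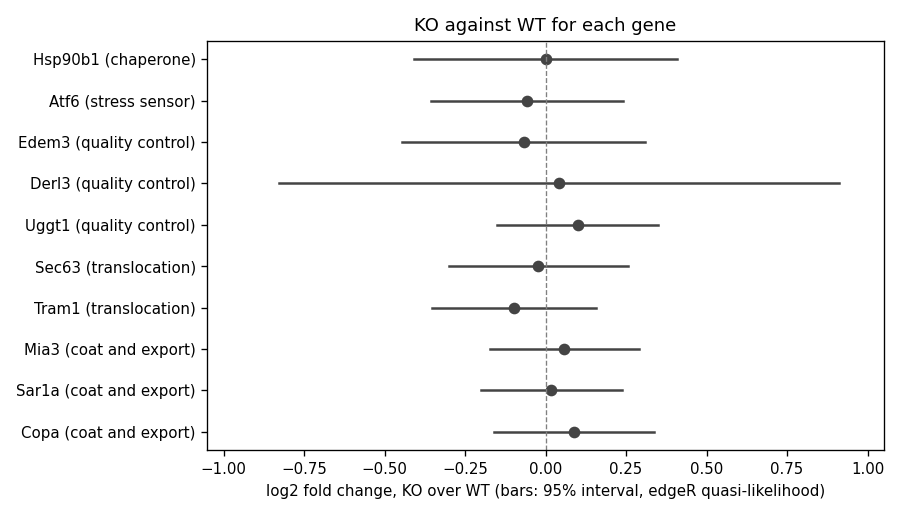
Log2 fold change, KO over WT, of each gene with its 95% interval from edgeR's quasi-likelihood fit (n = 3 replicates per genotype), with the role of the gene in brackets. All 10 intervals cross 0, and that of Derl3, from -0.83 to 0.91, is the widest.

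Hsp90b1 encodes GRP94 (endoplasmin), the HSP90 chaperone of the ER lumen, and lies at chr10:86690841-86705444 on the minus strand in mm10 (Entrez Gene 22027). It stood at 6271, 8680.3 and 6689 CPM in WT replicates 1 to 3 and at 8775, 5791 and 7079 CPM in KO replicates 1 to 3. The highest and the lowest value were both KO replicates, and the genotype means were nearly equal, 7214 ± 1287 for WT and 7215 ± 1497 CPM for KO (SD, n = 3). The log2 fold change was 0.00028 ± 0.18 (SE), and its 95% interval, as a percent change in KO, ran from -24.7% to 32.9%. Its spread was wider than counting error. The 2 libraries of a replicate differed by at most 2.03%, while the highest replicate exceeded the lowest 1.52-fold. Exons of Hsp90b1 share 415 bases with 1810014B01Rik on the opposite strand, which itself stood at 67.6 ± 13.4 for WT and 73.7 ± 10.2 CPM for KO. No source used here says whether reads were counted by strand.

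Atf6 encodes the stress sensor that is cleaved to a transcription factor, and lies at chr1:170704457-170868585 on the minus strand (Entrez Gene 226641). Its level was 374, 435 and 442 CPM in the WT replicates and 405, 354 and 443 CPM in the KO replicates, in order of number. The genotypes overlapped throughout, with means of 417 ± 37.4 for WT and 401 ± 44.9 CPM for KO (SD, n = 3). The log2 fold change was -0.059 ± 0.13 (SE), with a 95% interval from -0.36 to 0.24. This is the level of the mRNA, and the cleavage that activates the protein was not measured.

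Uggt1, Edem3 and Derl3 act on proteins that fail to fold. Uggt1 encodes the glucosyltransferase that puts a glucose back on misfolded glycoproteins so that they rejoin the chaperone cycle (chr1:36140028-36244320, minus strand, Entrez Gene 320011). It was measured at 597, 652 and 656 CPM in WT and at 713, 619.8 and 709 CPM in KO, so 2 KO replicates lay above every WT replicate and 1 did not. The means were 635 ± 32.8 for WT and 681 ± 52.8 CPM for KO (SD, n = 3), and the log2 fold change of 0.10 ± 0.11 (SE) was the highest of the 10, with a 95% interval from -0.15 to 0.35. Edem3 encodes a mannosidase-like protein that trims glycoproteins for degradation (chr1:151755344-151822328, plus strand, Entrez Gene 66967). It stood at 297, 458 and 402 CPM in WT and at 395, 363 and 346 CPM in KO. Here the WT replicates held both extremes, and the KO replicates lay between them, with means of 386 ± 81.8 CPM and 368 ± 25.2 CPM (SD, n = 3) and a log2 fold change of -0.068 ± 0.17 (SE, 95% interval -0.44 to 0.31).

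Derl3 encodes a derlin, a membrane protein of the machinery that pulls proteins back to the cytosol, and is best known from secretory cells such as plasma cells (chr10:75893398-75895941, plus strand, Entrez Gene 70377). It was the least abundant of the 10, at 24.7, 62.1 and 53.1 CPM in WT and 62.9, 36.6 and 44.7 CPM in KO, from 130.0 to 295 counts per replicate. The lowest value was WT replicate 1, and the 2 highest, WT replicate 2 and KO replicate 1, were nearly equal. Means were 46.6 ± 19.5 for WT and 48.1 ± 13.5 CPM for KO (SD, n = 3). The log2 fold change of 0.042 ± 0.38 (SE) had a 95% interval from -43.6% to 88.1% as a percent change in KO, so a change of 1.5-fold in either direction lay inside it. Of 14 listed plasma and B cell markers only 4 were in the table, and these did not exceed 16.1 CPM in summed level in any replicate. Whether such cells have a part in the level of Derl3 was not tested.

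Sec63 and Tram1 belong to the gate through which proteins enter the ER. Sec63 encodes a J-domain protein that brings the chaperone BiP to the channel (chr10:42761496-42832514, plus strand, Entrez Gene 140740). Its level was 908, 988 and 868 CPM in WT and 1008, 788 and 927 CPM in KO, with means of 921 ± 61.4 CPM and 907 ± 111 CPM (SD, n = 3). As for Hsp90b1, the KO replicates held both extremes, and the log2 fold change was -0.022 ± 0.12 (SE, 95% interval -0.30 to 0.26). Tram1 encodes a membrane protein that contacts the entering chain (chr1:13564693-13589910, minus strand, Entrez Gene 72265). It stood at 761, 875 and 818 CPM in WT and at 837, 741 and 717 CPM in KO. In Tram1, 2 of the 3 KO replicates were below every WT replicate and KO replicate 1 was not. The means were 818 ± 56.6 for WT and 765 ± 64.0 CPM for KO (SD, n = 3), and the log2 fold change of -0.097 ± 0.11 (SE, 95% interval -0.35 to 0.16) was the lowest of the 10.

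Mia3 and Sar1a serve the exit from the ER. Mia3 encodes TANGO1, which gathers bulky cargo such as procollagen at exit sites (chr1:183326236-183369565, minus strand, Entrez Gene 338366). Its replicates were close together, at 1001, 1097 and 1158 CPM in WT and 1099, 1132 and 1159.5 CPM in KO, with a log2 fold change of 0.059 ± 0.10 (SE, 95% interval -0.17 to 0.29). Sar1a encodes the GTPase that starts the COPII coat (chr10:61680285-61693297, plus strand, Entrez Gene 20224). It varied least of the 10, at 2305, 2253 and 2136 CPM in WT and 2366, 2147 and 2263 CPM in KO. With means of 2231 ± 86.3 CPM and 2259 ± 109.6 CPM (SD, n = 3), its log2 fold change was 0.018 ± 0.097 (SE), and the 95% interval ran from -13.1% to 17.8% as a percent change in KO, the narrowest of the 10.

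Copa encodes the alpha subunit of coatomer, the COPI coat that returns proteins from the Golgi to the ER (chr1:172082529-172122332, plus strand, Entrez Gene 12847). It stood at 2089, 2417 and 2419.6 CPM in WT and 2279.7, 2459.9 and 2624 CPM in KO. WT replicate 1 was the lowest and KO replicate 3 the highest, and KO replicate 1 lay below 2 WT replicates. The means were 2308 ± 190.1 for WT and 2455 ± 172 CPM for KO (SD, n = 3), with a log2 fold change of 0.089 ± 0.11 (SE, 95% interval -0.16 to 0.34). Exons of Copa share 195 bases with Ncstn, a gamma-secretase subunit gene on the opposite strand, which stood at 1445 ± 86.9 for WT and 1604 ± 93.9 CPM for KO. Every KO replicate of Ncstn lay above every WT replicate, as in 4.45% of all tested genes. Its log2 fold change of 0.15 ± 0.10 (SE) did not pass (edgeR adjusted p = 0.994). Whether reads of Ncstn have a part in the level of Copa was not tested.

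**Figure D2:**
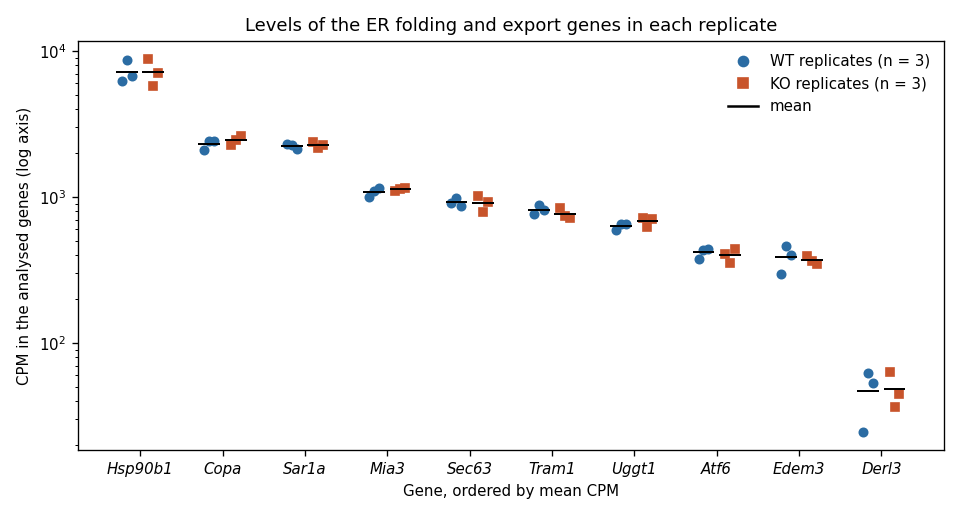
CPM of each gene in each replicate on a log axis, with WT replicates as circles, KO replicates as squares and the mean of each genotype (n = 3) as a line. Hsp90b1 stands highest, between 5791 and 8775 CPM, and Derl3 lowest, between 24.7 and 62.9 CPM, and in every gene the genotypes overlap.

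Levels of different genes were compared as CPM per kilobase of exon, with exon lengths from GENCODE M21. Mia3 was left out because the transcripts of that annotation do not hold the whole gene. Hsp90b1 was highest at 2554 ± 442 CPM per kilobase (SD over 6 replicates), above 98.1% of the 1402 tested genes with a length. Sar1a followed at 859 ± 34.2, Copa at 512 ± 38.9, Tram1 at 269 ± 20.9 and Sec63 at 152 ± 13.4 CPM per kilobase. The ranges of these 5 genes over the 6 replicates did not overlap, and within a replicate Hsp90b1 exceeded Sar1a 2.49 to 3.56-fold. Lower still stood Uggt1 at 72.8 ± 5.16, Edem3 at 59.1 ± 8.62 and Atf6 at 56.4 ± 5.25 CPM per kilobase. The ranges of Uggt1 and Edem3 overlapped, and those of Edem3 and Atf6 did too, with Edem3 above Atf6 in 4 of 6 replicates. Derl3 was last at 35.8 ± 11.4 CPM per kilobase, below Atf6 in 6 of 6 replicates. Among these genes the order thus ran from Hsp90b1 through the coat genes and the translocation genes to Uggt1, Edem3, Atf6 and Derl3. It does not rank the roles, since other genes of the lists described below broke it. Srp9, a translocation gene, stood at 751 CPM per kilobase, above Copa. Ubxn4, a quality control gene, stood at 328, above Tram1.

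Variation among the replicates was unequal among these genes. The coefficient of variation over the 6 replicates was 31.8% for Derl3, 17.3% for Hsp90b1 and 14.6% for Edem3, and between 3.99% and 9.31% for the other 7. Counting error alone gives 6.68%, 0.539% and 2.34% for those 3 genes. Hsp90b1, Derl3 and Sec63 were highest in KO replicate 1 and next highest in WT replicate 2, and Tram1 was highest in WT replicate 2 and next highest in KO replicate 1. Of these genes, Hsp90b1 and Derl3 held an ERSE, the window of Sec63 held none, and Tram1 had no promoter entry to search. Whether the element has a part in this order was not tested, and the share of all tested genes with this order was not counted. In the other 4 replicates Hsp90b1 lay between 5791 and 7079 CPM, Derl3 between 24.7 and 53.1 CPM, Sec63 between 788 and 927 CPM and Tram1 between 717 and 818 CPM. Those 2 replicates are the ones that stood apart in Sgk1 and Egr2, and their part in these levels was not tested. Without both of them the log2 fold change was 0.0083 for Hsp90b1 and 0.075 for Derl3, an alternative chosen after seeing the data.

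**Figure D3:**
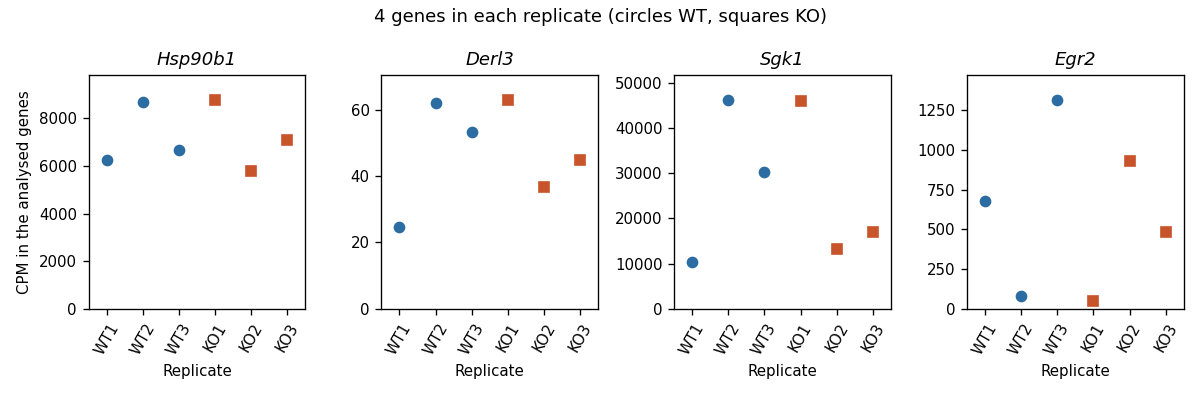
CPM of Hsp90b1, Derl3, Sgk1 and Egr2 in each replicate, on linear axes from 0, with WT as circles and KO as squares. WT replicate 2 and KO replicate 1 are highest in Hsp90b1, Derl3 and Sgk1 and lowest in Egr2.

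Across the 6 replicates the log2 CPM values of Hsp90b1 had a Pearson correlation of 0.92 with Sec63, 0.79 with Derl3 and 0.74 with Tram1, and of 0.037 with Mia3 and 0.033 with Copa. The correlation of Hsp90b1 with Edem3, Uggt1, Sar1a and Atf6 lay between 0.57 and 0.66. Mia3 and Copa had a correlation of 0.91, and Mia3 and Sar1a had -0.54. Derl3 was closest to Edem3, also at 0.91, and Sec63 and Sar1a had 0.81. Of the 45 pairs among the 10 genes, 38 had a correlation above 0, and the median was 0.51. These correlations describe 6 samples, within each of which the genes share libraries, scaling and composition. WT replicate 1 was the lowest replicate for 5 of the 10 genes (Derl3, Edem3, Uggt1, Mia3 and Copa) and lay above a gene's own mean in 1 of 10, Sar1a, while KO replicate 1 was the highest for 5 (Hsp90b1, Derl3, Sec63, Uggt1 and Sar1a). How often these replicates were lowest or highest over all tested genes was not counted, so these counts are not particular to the 10 genes.

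**Figure D4:**
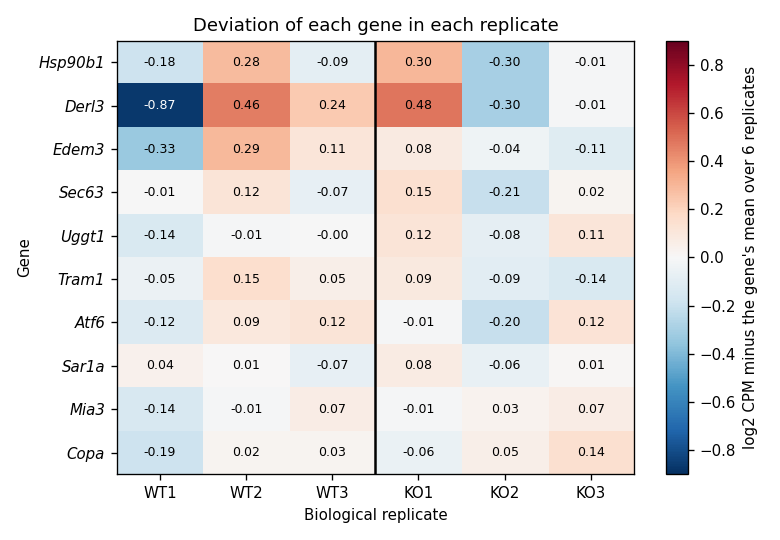
Log2 CPM of each gene in each replicate minus the mean of that gene over the 6 replicates, with red above and blue below the mean and a line between the genotypes. Hsp90b1 and Derl3 are red in WT2 and KO1, Derl3 in WT1 is the strongest deviation at -0.87, and no row is red on one side of the line and blue on the other.

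Other genes of the pathway were described from 7 lists holding 356 symbols, of which 39 were in the table and tested, 29 of them outside the 10 genes. By the same edgeR test 0 of the 29 were higher and 0 lower, 1 had an unadjusted p under 0.05, which was Man1a, and 9 had a log2 fold change above 0 and 20 below, with a median of -0.061. Over all 1484 tested genes, 0% were called, 3.98% had an unadjusted p under 0.05 by that test, and 734 lay above 0 and 750 below. Of the chaperones and folding enzymes, 2 were tested besides Hsp90b1, P4ha1, a subunit of the collagen prolyl hydroxylase, at a log2 fold change of -0.20 ± 0.16 (SE) and Qsox1, a sulfhydryl oxidase, at 0.13 ± 0.16. The chaperone genes Hspa5, Calr and Canx were not analysed here.

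In the list of the unfolded protein response, 5 genes were tested including Atf6, 0 above 0 and 5 below, with 0 called. Ppp1r15b, which restores translation by recruiting a phosphatase to eIF2alpha, stood at a log2 fold change of -0.029 ± 0.12 (SE). Ddit4, an inhibitor of mTORC1 signalling that stress induces, stood at -0.70 ± 0.41. The median of the 5 genes, -0.20, was the value of Atf3, which had an SE of 0.87 and ran from 32.8 to 241 CPM over the replicates. This median depended on the replicates and on the fit. It was -0.64 without KO replicate 2, -0.0076 without WT replicate 3, -0.056 without WT replicate 2, -0.041 without KO replicate 1 and -0.019 without both WT replicate 2 and KO replicate 1. With all replicates kept it was -0.066 with limma-voom, -0.058 with duplicateCorrelation on 12 libraries, -0.097 with the second library of each replicate and -0.30 with the replicate block.

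Among 8 tested quality control and degradation genes besides Uggt1, Edem3 and Derl3, 2 lay above 0 and 6 below, with 0 called and a median of -0.050. Ubxn4, an ER membrane protein that recruits the ATPase p97, stood at 1344 ± 93.6 for WT and 1358 ± 99.6 CPM for KO (SD, n = 3). Tor1aip2 had a log2 fold change of -0.052 ± 0.11 (SE). Man1a, an alpha-mannosidase of the Golgi, was the 1 gene of these lists whose genotypes did not overlap, at 498, 425 and 341 CPM in WT and 529, 509 and 619 CPM in KO, and it was singled out after its values were seen. That is 1 of 29 genes, where 8.49% of all tested genes did not overlap, 4.45% with KO above WT. Its log2 fold change was 0.39 ± 0.16 (SE), which did not pass (edgeR adjusted p = 0.994). Of 4 translocation genes besides Sec63 and Tram1, 2 lay above 0 and 2 below. Ncln, a subunit of a membrane protein insertion complex, had a log2 fold change of 0.095 ± 0.098 and Srp9, of the signal recognition particle, -0.17 ± 0.11.

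The N-glycosylation and GPI anchoring list had 5 genes tested, 0 above 0 and 5 below, with 0 called and a median of -0.17. Pigc, needed for the first step of GPI synthesis, stood at 752 ± 102 for WT and 650.4 ± 50.2 CPM for KO (SD, n = 3), and Nus1, a subunit of the enzyme that makes the dolichol precursor, at 412 ± 22.4 and 381 ± 35.6 CPM. Of 6 genes of the COPII coat and ER exit besides Mia3 and Sar1a, 4 lay above 0 and 2 below, with a median of 0.038. Trappc10, a subunit of a vesicle tethering complex, had a log2 fold change of -0.10 ± 0.16 (SE) and Cnih4, of the cornichon cargo receptors, 0.028 ± 0.12. Copa was the only gene of the COPI list in the table.

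**Figure D5:**
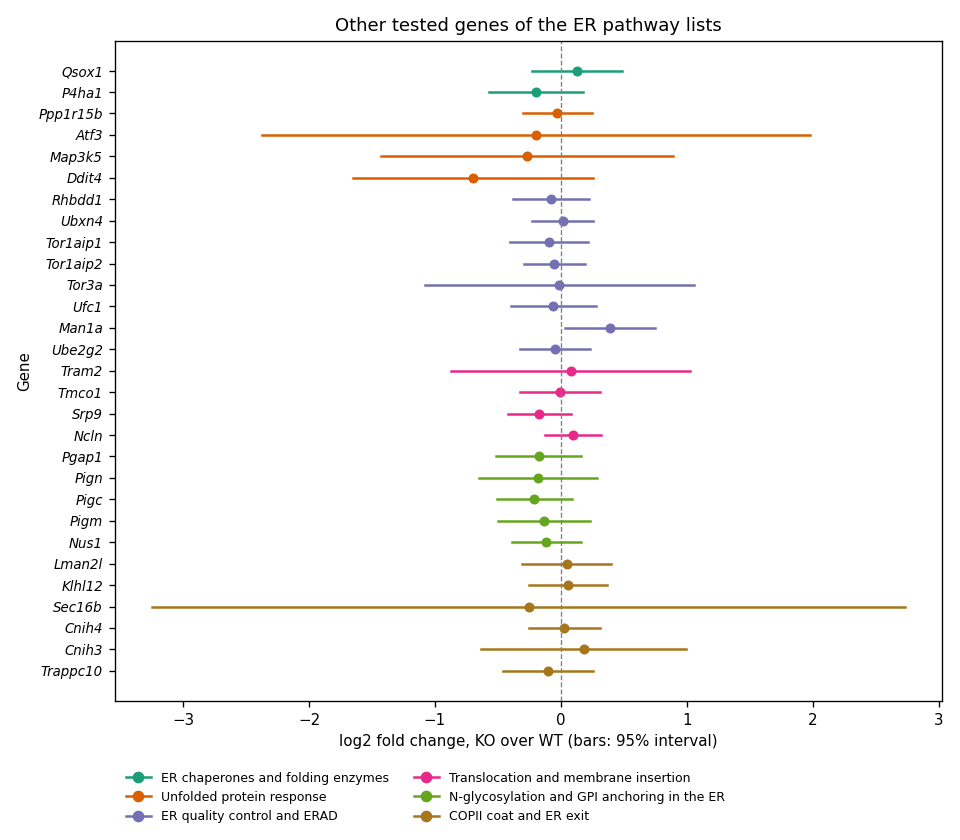
Log2 fold change, KO over WT, of the 29 other tested genes of the ER lists with 95% intervals, coloured by list (n = 3 replicates per genotype). The interval of Man1a alone does not reach 0 before adjustment, and the widest interval is that of Sec16b, a gene with 6.84 CPM at most.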

How the data were processed

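Raw read counts per gene and library were used as deposited by the authors, with Entrez Gene identifiers. The submitters' processing notes name, among other tools, HISAT2 (an aligner), featureCounts (a read counter), SAMtools 1.4.1 and DESeq2 1.38.1, with mm10 as the build. No source used here gives their parameters or strand setting. The table held 2398 complete lines, and 1 incomplete line was left out. Symbols and coordinates come from the RefSeq table for GRCm38 (mm10), which matched 2226 genes. The unmatched 172 genes held 0.552% of the counts.

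The 2 libraries of a replicate differed by 1.00 to 1.06 in chi-square per degree of freedom, where replicates of a genotype differed by 38.1 to 140, and were summed. The genotypes were compared by a robust quasi-likelihood fit in edgeR 4.0.16 (R 4.3.3), with TMM factors from 0.951 to 1.05. The filter was filterByExpr, and p-values were adjusted after Benjamini and Hochberg over 1484 genes. The SE is the log2 fold change over the square root of F. Fits were tested on simulated data. Alternatives were other size factors and filters, DESeq2 1.42.0, limma-voom (limma 3.58.1), a replicate block, single libraries, 12 libraries with duplicateCorrelation, and leaving out replicates. Exon lengths are the union of exons in the GENCODE M21 basic annotation and cover 1402 of the tested genes. The named genes are the 10 members, from each list the called genes or else the 2 with the highest CPM, and the 3 most like Hsp90b1. Outside this rule, Man1a, Sec16b, Sgk1 and Egr2 were named after their values were seen, and Atf3 as the median of its list. Ncstn and 1810014B01Rik were named for sharing exon bases with a member, and Adamts4, Nfasc and Fcrla as cell type markers. The 10 genes, the lists and the motifs were chosen with earlier results of these data known.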

Additional observations from a re-analysis of the deposited data

How the results depend on the processing

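No alternative called any of the 10 genes, and the smallest adjusted p for any of them over 19 alternatives was 0.853. Of 190 alternative values of a gene's log2 fold change, 169 kept the sign and 21 changed it. The changes fell in Hsp90b1, Sec63, Sar1a, Derl3, Edem3 and Atf6, whose values in the main fit ran from -0.068 for Edem3 to 0.042 for Derl3. Tram1, Uggt1, Copa and Mia3 kept their sign in all 19, but their size moved: leaving out 1 replicate gave -0.17 to -0.038 for Tram1, 0.056 to 0.17 for Uggt1, 0.020 to 0.14 for Copa and 0.0016 to 0.12 for Mia3. The same ranges were -0.17 to 0.16 for Hsp90b1, -0.26 to 0.30 for Derl3, -0.23 to 0.080 for Edem3, -0.14 to 0.028 for Atf6, -0.11 to 0.074 for Sec63, -0.020 to 0.057 for Sar1a and -0.088 to 0.077 for the median of the 10 genes. The value of Hsp90b1 was -0.030 with library totals only, -0.0063 with limma-voom, -0.0048 with the replicate block and -0.0060 with duplicateCorrelation. That of Sar1a was -0.010 with library totals only. That of Sec63 was 0.0014 with upper-quartile factors, 0.011 with the second library of each replicate and 0.080 with DESeq2 without KO replicate 2, where Atf6 was 0.034. Edem3 was 0.035 without both WT replicate 2 and KO replicate 1. For these sign changes the cause was not tested. Over all genes, edgeR's 0 higher and 0 lower became 6 and 1 with DESeq2 on 6 replicates and 7 higher with duplicateCorrelation on 12 libraries, while DESeq2 without KO replicate 2 called 0. The cause was not tested.

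Same-numbered replicates had correlated deviations of -0.0032, -0.30 and 0.14, so the numbers are not taken as pairs, and the replicate block left 0 genes called, with 49 at an unadjusted p under 0.05. DESeq2 without KO replicate 2, and the fit without WT replicate 2 and KO replicate 1, were chosen after seeing the data. Derl3, with 130.0 to 295 counts per replicate, had the widest interval of the 10 genes.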

Other observations

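The genes whose log2 CPM over the 6 replicates was most like that of Hsp90b1 were Ro60, an RNA-binding protein gene, with a Pearson correlation of 0.99, Ubxn4 with 0.98 and Pcbp3, another RNA-binding protein gene, with 0.98. Ubxn4 belongs to the list of ER quality control and degradation. Its level was 1451 CPM in WT replicate 2, 1468 CPM in KO replicate 1 and 1274 to 1333 CPM elsewhere. Ro60 stood at 962 and 974 CPM in those 2 replicates and between 749 and 867 CPM in the others. With 6 samples, within each of which the genes share libraries and scaling, and 1484 genes to choose from, correlations of this size are given as a description.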
